A study of Homo sapiens with 6 samples.

Results

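Caspases are cysteine proteases that carry out programmed cell death, and gasdermin D is the pore-forming protein that the inflammatory caspases cut. The mRNA levels of 8 such genes, CASP1, CASP2, CASP4, CASP6, CASP8, CASP9, CASP10 and GSDMD, were examined in HT29 cells after knockdown of ALDOA, a glycolytic enzyme. The genes were taken by their symbols, and all 8 were among the 28278 genes listed in each count table. All 8 also passed the filter on low counts, which left 15307 genes for testing. HT29 is a human colorectal adenocarcinoma cell line of epithelial origin. The siALDOA group held 3 libraries from cells treated with siRNA against ALDOA (labelled ALDOA KD), and the siControl group held 3 libraries from cells treated with a scrambled siRNA (labelled WT). RNA was taken 48 h after treatment in both groups. Both groups had therefore received siRNA. The labels speak of a siRNA against ALDOA in the singular, its sequence is not given in the sources used here, and untreated cells were not analysed here.

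These genes act at different points of cell death. CASP8 and CASP10 are started by death receptors at the cell surface, and CASP9 by the apoptosome that forms when mitochondria release cytochrome c. These switch on executioner caspases, a class to which CASP6 is assigned. CASP2 is started by the PIDDosome and is grouped with the initiators. CASP1 is activated by inflammasomes and CASP4 by bacterial lipopolysaccharide in the cytosol, and both cut GSDMD, whose freed part opens pores in the plasma membrane and causes the lytic death called pyroptosis. Intestinal epithelium is known for the use of CASP4 and GSDMD against invading bacteria. All of these proteins are made as inactive precursors, so mRNA levels report supply and not activity.

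Of the 8 genes, only GSDMD rose with siALDOA, by 1.25-fold, and none fell. A gene was called when edgeR's quasi-likelihood test gave a Benjamini-Hochberg adjusted p below 0.05 over all 15307 genes tested. Over all genes 4.36% were called higher and 5.29% were called lower, so that 1 call among 8 genes is not far from the background. These are 668 higher and 810 lower genes, and scaling by library totals only gave 896 and 279. At the study's threshold, an unadjusted p below 0.01, which more genes pass, edgeR's test again passed GSDMD alone among the 8, against 12.5% of all genes in either direction. The CPM (counts relative to the library total, after TMM scaling) of the groups did not overlap for 2 of the 8 genes, GSDMD and CASP6, against 27.7% of all genes. The median log2 fold change of the 8 genes was 0.042, beside 0.0016 over all genes tested, and the 8 values ran from -0.20 for CASP6 to 0.32 for GSDMD. Since the RNA came from bulk cultures, a change in the share of cells that express a gene and a change in RNA per cell cannot be told apart.

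The libraries held 27277538 to 33237914 counts. ALDOA itself, the target of the siRNA, averaged 289 ± 13.7 CPM in the siALDOA group, against 632 ± 38.2 CPM in the siControl group (SD, n = 3 each). Ribosomal RNA genes took 7.71% to 17.4% of the counts. This share was above 10% in siALDOA replicate 1 and siControl replicates 1 and 2, and at most 8.15% in the other libraries. Of 8 markers of colorectal epithelium 7 were expressed, and LGALS4 was listed at 0 in every library. Their summed level was 8374 to 8608 CPM with siALDOA and 9183 to 9648 CPM with siControl. Most of this sum and of its difference lay in KRT8 (5093 against 5595 CPM on average) and KRT18 (1911 against 2320 CPM). CDH1 (500 against 527 CPM), KRT20 (312 against 323 CPM), VIL1 (278 against 298 CPM) and CDX2 (12.45 against 14.4 CPM) were also lower on average. EPCAM alone was higher, at 374 against 341 CPM. Of 8 markers of blood cells, which are rich in CASP1 and GSDMD, TYROBP and CD3E were at 0, PTPRC had at most 1 count and HBB at most 4 in any library. CD79A had 6, 5 and 8 counts in the siALDOA libraries against 2, 5 and 4 in those of siControl, FCER1G had 7, 0 and 3 against 0, 0 and 2, and only CD14 and CD68 were abundant enough to test. The summed level of the blood cell list was 30.6 to 31.9 CPM with siALDOA and 25.3 to 29.1 CPM with siControl, and CD14 was called higher (log2 fold change 0.32, SE 0.10, adjusted p = 0.0485). KRT18 was the only epithelial marker called (log2 fold change -0.28, adjusted p = 0.0152). Of 6 fibroblast markers 2 were tested and 0 called, with summed levels of 3.16 to 4.33 CPM with siALDOA and 3.05 to 4.46 CPM with siControl. The part of these markers in the results was not tested.

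**Figure D1:**
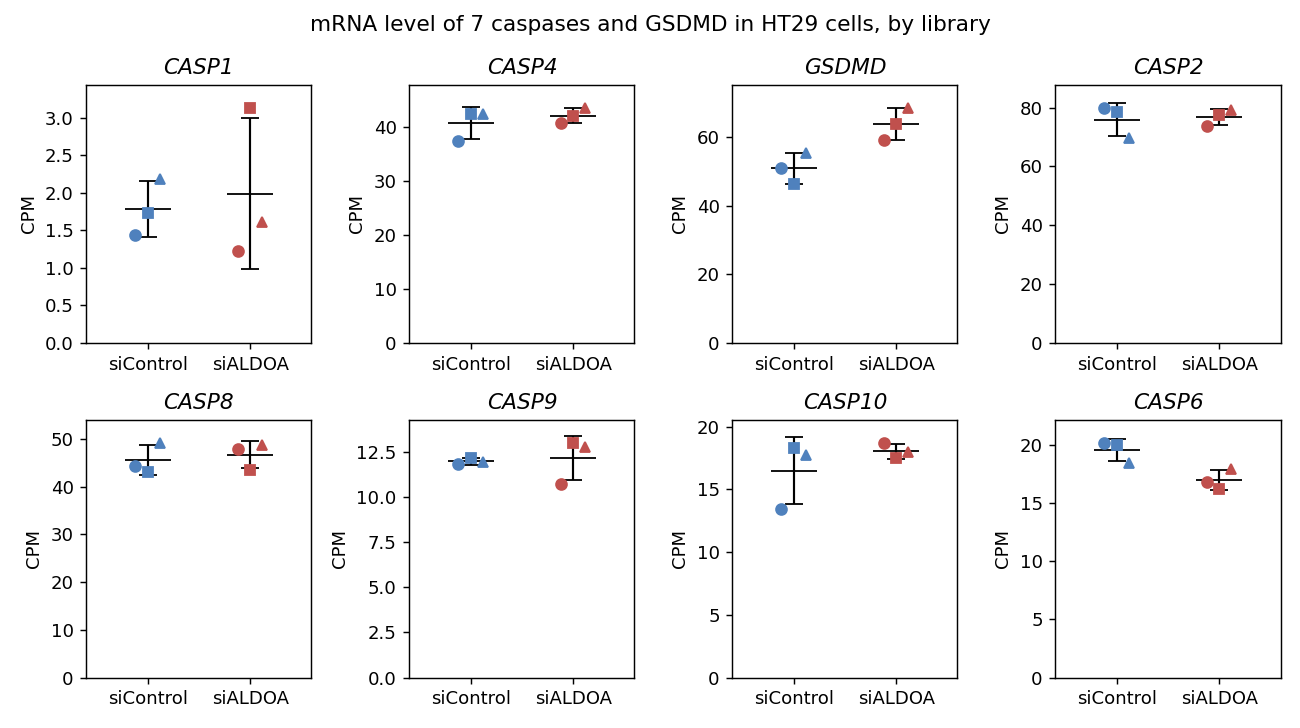
CPM of each gene (vertical axis, from 0) in the siControl (blue) and siALDOA (red) libraries, with a circle, square and triangle for replicates 1, 2 and 3, and bars for the mean and SD of 3 libraries. The groups are apart only for GSDMD, where siALDOA lies above siControl, and for CASP6, where it lies below.

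GSDMD (ENSG00000104518) lies on the plus strand at chr8:143553207-143563062 of hg38 and encodes the pore-forming protein of pyroptosis. Its level was 59.0, 63.7 and 68.4 CPM in siALDOA replicates 1, 2 and 3 and 51.1, 46.3 and 55.4 CPM in the siControl replicates. Every siALDOA library thus lay above every siControl library, although the gap between siALDOA replicate 1 and siControl replicate 3 was small beside the spread within each group. The log2 fold change was 0.32 (SE 0.076, adjusted p = 0.00836), with a 95% interval of the fold from 1.12 to 1.40. By p, GSDMD ranked 686th of the tested genes. Of its exonic bases in GENCODE, 136 are also exonic in a long noncoding RNA gene (ENSG00000289161) on the opposite strand that the count tables do not list. The rise was no longer past the threshold without siALDOA replicate 3 (log2 fold change 0.27, adjusted p = 0.0558) or without siControl replicate 2 (0.26, adjusted p = 0.0777).

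Within each group the level of GSDMD was lower in the libraries above 10% ribosomal RNA than in those below, without following the share in order inside a class. Among siALDOA libraries it was lowest in replicate 1, which had 13.1% ribosomal RNA against 7.71% and 8.11%, and among siControl libraries it was highest in replicate 3, which had 8.15% against 17.4% and 15.3%. With the class of a library, above or below 10%, as a term in the fit, the log2 fold change was 0.27 (SE 0.068, adjusted p = 0.0103). It was 0.25 within the 3 libraries below 10% and 0.28 within the 3 libraries above 10%. Each class sets 2 libraries of one group against 1 of the other, so these are given as values without a test, and their direction was the same in both classes.

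CASP1 and CASP4, the proteases that cut gasdermin D, did not pass the test. CASP1 (ENSG00000137752, minus strand, chr11:105025397-105035250), the enzyme that also matures interleukin-1 beta, was at 1.22, 3.13 and 1.62 CPM with siALDOA and at 1.44, 1.74 and 2.19 CPM with siControl. The groups overlapped, and siALDOA replicate 2 held the highest value of all. These levels rest on 34 to 94 counts per library, and the interval of the fold, 0.696 to 1.79, leaves room for changes in either direction that are larger than that of GSDMD. Of the 75-base words in transcripts of CASP1, 2.14% also occur in transcripts of its neighbour CARD16, which had 3 counts in siControl replicate 1 and 0 elsewhere.

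CASP4 (ENSG00000196954, minus strand, chr11:104942866-104969366), the sensor of lipopolysaccharide, was at 40.8, 42.1 and 43.5 CPM with siALDOA and at 37.3, 42.3 and 42.5 CPM with siControl. Except for the lower siControl replicate 1, the libraries lay within the same narrow range. Its log2 fold change was 0.049 (SE 0.073, adjusted p = 0.745), and the 95% interval of the fold, 0.930 to 1.15, did not reach the 1.25-fold of GSDMD.

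Among the initiator caspases, CASP2 (ENSG00000106144, plus strand, chr7:143288215-143307696), the protease of the PIDDosome, was at 73.7, 77.5 and 79.2 CPM with siALDOA and at 79.7, 78.5 and 69.5 CPM with siControl. The lowest and the highest of the 6 values both belonged to siControl. Its fold was 1.01, with a 95% interval from 0.919 to 1.11 (adjusted p = 0.913).

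CASP9 (ENSG00000132906, minus strand, chr1:15490832-15526534), the caspase of the apoptosome, was at 10.7, 13.0 and 12.7 CPM with siALDOA and at 11.8, 12.2 and 11.96 CPM with siControl. The siControl values lay inside the siALDOA range. Its fold was 1.02, with a 95% interval from 0.863 to 1.19 (adjusted p = 0.933). Of its exonic bases in GENCODE, 101 are also exonic in CELA2B on the opposite strand, and the strand setting of the counting is not given in the sources used here.

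CASP8 and CASP10 are neighbours on the plus strand of chromosome 2, downstream of death receptors such as FAS. CASP8 (ENSG00000064012, chr2:201233443-201361836) was at 47.9, 43.4 and 48.7 CPM with siALDOA and at 44.4, 43.1 and 49.1 CPM with siControl. The groups overlapped over almost their whole range, and the fold was 1.02 with a 95% interval from 0.921 to 1.14 (adjusted p = 0.823). CASP8 shares 343 exonic bases with a long noncoding RNA gene on the same strand (ENSG00000289698), which the count tables do not list either.

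CASP10 (ENSG00000003400, chr2:201182872-201229428) was at 18.7, 17.5 and 17.95 CPM with siALDOA and at 13.4, 18.3 and 17.8 CPM with siControl. Only siControl replicate 1 stood apart, on the low side. The log2 fold change of CASP10, 0.13 (SE 0.11, adjusted p = 0.535), rested on that library, and without it the value was 3.0e-04.

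The RefSeq promoter windows on GRCh38.p14, from 250 bases before a transcription start to 50 bases after it, were searched on both strands for the core of the interferon-stimulated response element, GAAANNGAA, and for the core of a STAT binding site, TTCNNNGAA. The 2 cores can share letters with one another. Windows were given for 5 of the 8 genes, CASP2, CASP4, CASP6, CASP8 and CASP9, with 9 windows in all. Of these, 1 held the first core and 1 held the second, and both matches fell in the most upstream of the 3 windows of CASP8. Over all 35116 windows the first core occurred in 8.11% and the second in 7.66%. The shares were 6.72% and 6.24% over the windows of tested genes, and 13.3% and 8.1% over those of genes called higher with siALDOA, which is a description without a test. The CASP8 window is printed because it holds the letters of both cores although the CASP8 mRNA was not called, and the window of IRF1, a transcription factor gene that rose, is set beside it. Of 84 windows of the pathway genes described further on, 10 held the first core and 8 the second, and XAF1, the called gene with the largest rise among them, had neither in its 2 windows. Both sequences are written 5′ to 3′ on the strand of the gene, CASP8 from the plus strand at chr2:201233213-201233512 and IRF1 from the minus strand at chr5:132490724-132491023, and capitals mark the matches on either strand.
CASP8: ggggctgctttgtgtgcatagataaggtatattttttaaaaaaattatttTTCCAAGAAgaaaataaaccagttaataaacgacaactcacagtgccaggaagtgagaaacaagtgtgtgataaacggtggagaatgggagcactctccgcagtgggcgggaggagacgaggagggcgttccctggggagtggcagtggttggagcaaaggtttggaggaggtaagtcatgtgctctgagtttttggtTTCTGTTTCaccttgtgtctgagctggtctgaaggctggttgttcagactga
IRF1: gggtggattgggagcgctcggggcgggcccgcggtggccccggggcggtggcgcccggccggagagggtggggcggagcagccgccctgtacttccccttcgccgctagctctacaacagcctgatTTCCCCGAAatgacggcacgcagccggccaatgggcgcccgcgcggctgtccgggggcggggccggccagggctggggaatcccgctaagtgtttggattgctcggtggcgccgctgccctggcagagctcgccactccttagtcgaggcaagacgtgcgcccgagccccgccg
Counted from the start of transcription, the match to the STAT core in CASP8 begins at -200 and the match to the first core, on the reverse strand, at -2, while the STAT core of IRF1 is at -124. A match of letters is a description and does not show that a factor binds there.

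CASP6 (ENSG00000138794, minus strand, chr4:109688622-109703583), an executioner caspase that cuts nuclear lamins, was at 16.8, 16.2 and 17.9 CPM with siALDOA and at 20.1, 19.99 and 18.5 CPM with siControl. All siALDOA libraries lay below all siControl libraries. Its log2 fold change of -0.20 (SE 0.094, unadjusted p = 0.0433, adjusted p = 0.194) did not pass the threshold over all genes, and the 95% interval of the fold ran from 0.759 to 0.995. It was negative in all 19 other fits, from -0.26 to -0.12, and passed in none of them. GENCODE gives 98 exonic bases of CASP6 as exonic also in MCUB on the opposite strand.

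**Figure D2:**
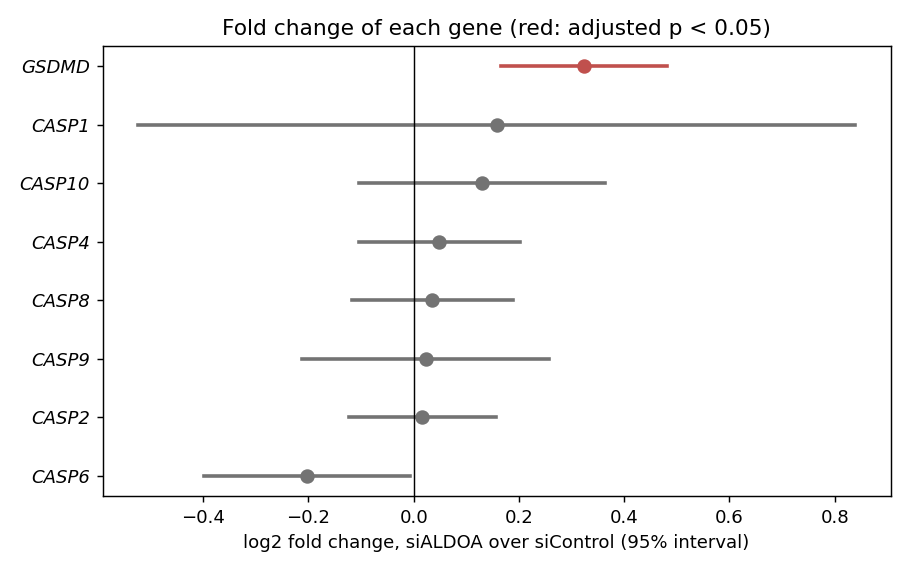
Log2 fold change of each gene, siALDOA over siControl (points), with its 95% interval (lines), in red where the adjusted p was below 0.05. The interval of GSDMD, 0.17 to 0.48, lies above 0, those of 6 caspases span 0, and that of CASP6 ends just below it.

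Levels were compared between genes after division by the exonic length in GENCODE, as CPM per kilobase. In siControl, CASP6 at 10.1 ± 0.480, GSDMD at 10.01 ± 0.894 and CASP2 at 9.47 ± 0.697 CPM per kilobase (SD, n = 3) were the highest, and their libraries overlapped from one gene to the next. CASP8 at 6.29 ± 0.438 and CASP4 at 6.11 ± 0.440 CPM per kilobase (SD, n = 3) followed below them and overlapped each other. CASP9 at 2.27 ± 0.0338, CASP10 at 1.85 ± 0.301 and CASP1 at 0.451 ± 0.0942 CPM per kilobase (SD, n = 3) came last, each without overlap with the gene above it. With siALDOA, GSDMD at 12.5 ± 0.917 CPM per kilobase (SD, n = 3) was the highest and CASP6 at 8.73 ± 0.454 (SD, n = 3) the third, while the order of the other genes was unchanged. The exonic length counts every annotated exon, so the level of a gene with many unused exons is understated.

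To compare GSDMD with the caspases without any scaling between libraries, the counts of GSDMD were divided by those of each caspase in the same library, a comparison chosen after the values were seen. GSDMD had 1.45, 1.51 and 1.57 counts per CASP4 count in siALDOA and 1.37, 1.09 and 1.30 in siControl. All siALDOA ratios were above all siControl ratios. The same held against CASP2, CASP6, CASP8 and CASP9, with differences of the mean log2 ratio from 0.27 for CASP4 to 0.53 for CASP6. All 7 ratios use the same GSDMD counts, so they are not independent of each other or of the rise of GSDMD given above. Against CASP1 and CASP10 the ratios overlapped between the groups. In a two-sided exact permutation test over the 6 libraries the 5 ratios without overlap each had p = 0.1, the smallest value that 3 libraries against 3 allow, and p = 0.14 after Benjamini-Hochberg adjustment over the 7 ratios, so this comparison cannot pass 0.05.

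**Figure D3:**
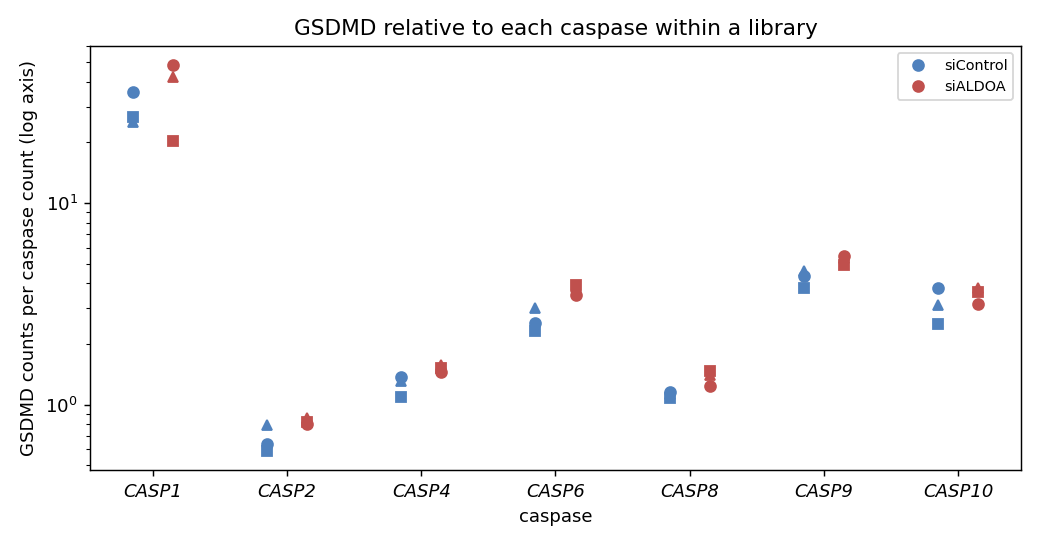
Counts of GSDMD per count of each caspase (log axis) in the siControl (blue) and siALDOA (red) libraries, with a circle, square and triangle for replicates 1, 2 and 3. The red points lie above the blue points for CASP2, CASP4, CASP6, CASP8 and CASP9, and the colours mix for CASP1 and CASP10.

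The genes outside the 8 whose log2 CPM followed that of GSDMD most closely over the 6 libraries were PLPP2, PRAF2 and MTSS2, each with a Pearson r of 0.99. The 6 points, scaled for library depth, share the groups and the ribosomal RNA classes, and 78 genes had r above 0.95. Of these partners MTSS2 was called (log2 fold change 0.24, edgeR adjusted p = 0.0352). PLPP2 (0.12, adjusted p = 0.268) and PRAF2 (0.66, adjusted p = 0.0617) were not.

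**Figure D4:**
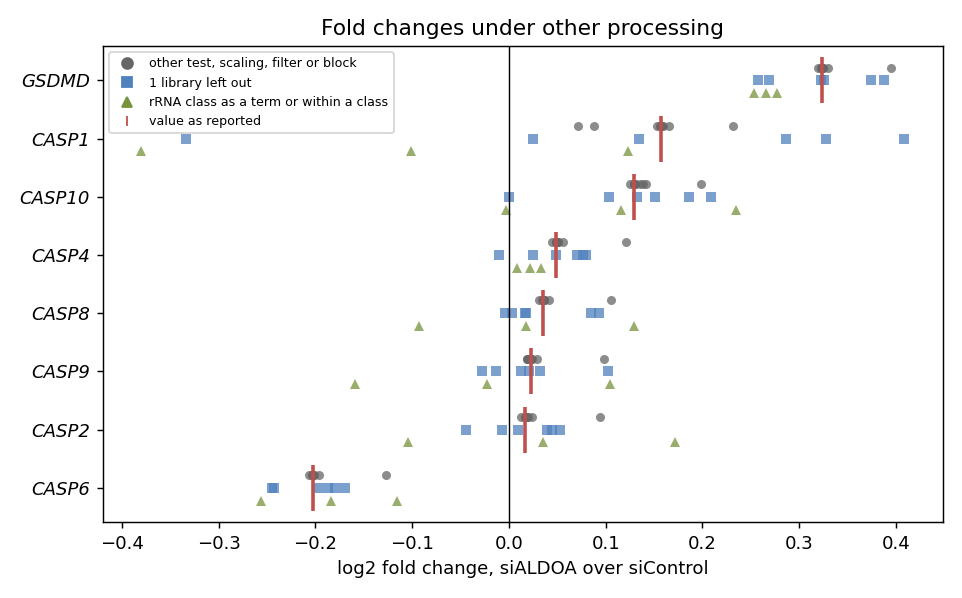
Log2 fold change of each gene as reported (red bar), with other tests, scalings, filters or the replicate block (grey circles), with 1 library left out (blue squares) and with the ribosomal RNA class as a term or within a class (green triangles). All values of GSDMD lie between 0.25 and 0.39 and all values of CASP6 below 0, while CASP1 runs from -0.38 to 0.41.

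The partners of these genes were described from lists of 60 further genes, sorted by role. Of these, 45 passed the filter on low counts, and 4 were called higher, 2 lower and 39 neither. The median log2 fold change of the 45 was 7.8e-04, and the groups did not overlap for 14 of them. Over all genes tested the shares were 4.36% higher, 5.29% lower and 27.7% without overlap, and the counts by role that follow stand beside these same shares. The 15 that the filter left out had at most 10 counts in any library.

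Of the other caspases listed, none was abundant enough to test. CASP5, the relative of CASP4 that also senses lipopolysaccharide, had 1 count in a single library, CASP12 had 4 counts in a single library, and CASP14, the caspase of skin, had 0 in all.

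Of 16 platform and adaptor genes, 13 were tested, 1 was called higher and none was called lower. CFLAR, which encodes the CASP8 inhibitor c-FLIP and lies beside CASP10 and CASP8, rose from 84.8 ± 4.11 CPM in siControl to 97.8 ± 0.499 CPM (SD, n = 3 each). Its log2 fold change was 0.21 (SE 0.060, adjusted p = 0.0342). The call did not survive 5 of the 6 leave-one-out fits, with an adjusted p of up to 0.186 without siControl replicate 2, while its log2 fold change stayed between 0.17 and 0.24. PYCARD, the inflammasome adaptor ASC, was at 24.6 ± 2.89 and 24.4 ± 1.42 CPM (SD, n = 3) in siALDOA and siControl. Inflammasome sensors differed in abundance, with CARD8 at 609 to 736 counts per library, NAIP at 309 to 480, NLRP6 at 25 to 51, NLRP3 at 8 to 30 and NLRC4 at 6 to 26, and with AIM2 and MEFV too low to test. None of the 5 tested sensors was called, with log2 fold changes from -0.38 for NLRP3 to 0.86 for NLRC4 and edgeR adjusted p from 0.278 to 0.999. NLRP1, also untested, was counted 3, 4 and 10 times in the siALDOA libraries, against 0, 0 and 2 times in those of siControl.

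Of 13 inhibitors of caspases and antagonists of these inhibitors, 10 were tested, 1 was called higher and none was called lower. XAF1, which opposes the caspase inhibitor XIAP and is itself known as an interferon-induced gene, averaged 72.2 ± 5.19 CPM in the siALDOA group, against 27.6 ± 3.68 CPM in the siControl group (SD, n = 3 each). The groups stood far apart, and the log2 fold change was 1.39 (SE 0.086, adjusted p = 4.54e-10). XIAP itself was not called, at 152 ± 5.62 against 157 ± 4.68 CPM in siControl (SD, n = 3 each, edgeR adjusted p = 0.732). CARD17 and CARD18, decoy relatives of CASP1, had 0 counts in every library.

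Of 11 other gasdermins, pyroptosis outputs and cytokine substrates, 5 were tested, 1 was called higher and none was called lower. GSDMB, a gasdermin of the gut and airway epithelium that granzyme A cuts, was at 21.5, 21.3 and 19.0 CPM with siALDOA and at 14.1, 12.5 and 14.2 CPM with siControl. All siALDOA libraries were above all siControl libraries, and the log2 fold change was 0.60 (SE 0.10, adjusted p = 4.55e-04). The call held in each of the 19 other fits. GSDMA, GSDMC and GSDME had from 0 to 4 counts in every library, so that GSDMD and GSDMB were the only pore-forming gasdermins with appreciable counts. IL18, a cytokine that CASP1 matures, was at 2.76 ± 0.492 and 2.87 ± 0.394 CPM (SD, n = 3) in siALDOA and siControl, and IL1B had at most 3 counts. The groups did not overlap for 4 of the 5 tested genes. Beside GSDMB, PJVK was higher (log2 fold change 0.78, edgeR adjusted p = 0.253). NINJ1 (-0.28, adjusted p = 0.0743) and IL33 (-1.275, adjusted p = 0.167, 4 to 23 counts) were lower. PJVK, NINJ1 and IL33 were not called, and NINJ1 passed an unadjusted edgeR p below 0.01.

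All 12 substrates of the executioner caspases were tested, and 2 were called lower and none higher. PANX1, a membrane channel opened by caspase cleavage, fell by 0.30 on the log2 scale (SE 0.085, adjusted p = 0.0313), and SPTAN1, a spectrin of the cell cortex, fell by 0.18 (SE 0.054, adjusted p = 0.0400). Neither was called when libraries were scaled by their totals only. The log2 fold changes were then -0.22 for PANX1 (edgeR adjusted p = 0.196) and -0.11 for SPTAN1 (adjusted p = 0.485). Each kept its call in 1 of the 6 leave-one-out fits, with values from -0.38 to -0.23 for PANX1 and from -0.19 to -0.16 for SPTAN1. PARP1 and LMNA, classical markers of caspase cleavage at the protein level, had log2 fold changes of -0.12 and 0.032 that were not called.

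Of 5 transcription factors known to act on caspase or gasdermin genes, 1 was called higher and none was called lower. IRF1, an interferon-responsive factor, was at 57.0, 65.0 and 66.9 CPM with siALDOA and at 44.5, 46.8 and 52.4 CPM with siControl, a log2 fold change of 0.39 (SE 0.077, adjusted p = 0.00196). The groups did not overlap. Its log2 fold change was 0.33 within the libraries below 10% ribosomal RNA and 0.32 within those above, again with 2 libraries against 1, and the call held in all 6 leave-one-out fits. IRF2, known to act on the GSDMD gene, was at 16.5 ± 2.39 and 15.1 ± 0.563 CPM (SD, n = 3) in siALDOA and siControl and was not called (adjusted p = 0.499). Like GSDMD, IRF1 was lowest in replicate 1 of the siALDOA libraries and highest in replicate 3 of the siControl libraries.

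**Figure D5:**
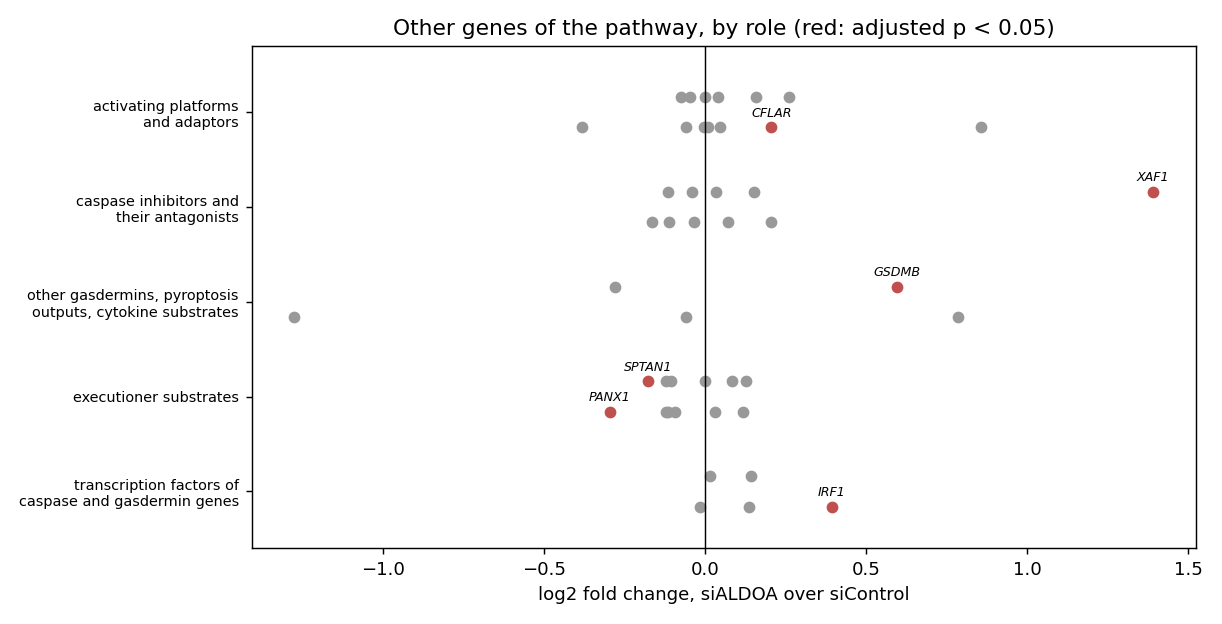
Log2 fold change of the 45 tested genes of the pathway lists (horizontal axis), siALDOA over siControl, in rows by role, in red and named where the adjusted p was below 0.05. Most genes lie near 0, and XAF1, GSDMB and IRF1 lie farthest to the right among the called genes.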

How the data were processed

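RNA-Seq libraries of HT29 cells, 3 siALDOA and 3 siControl by their labels, were analysed. Paired-end reads had been mapped by the authors with TopHat2 (build hg38) and summarised with gfold, and the deposited values are raw counts per gene symbol, without normalization. Which annotation and strand setting were used, and what was done with multiply mapped reads, is not given in the sources used here.

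Counts were tested in R 4.3.3 with edgeR 4.0.16, using filterByExpr, TMM scaling and the quasi-likelihood F-test on all 6 libraries without a covariate, and Benjamini-Hochberg adjustment over all genes tested. The SE was obtained as the size of the log2 fold change over the root of F. Library totals were 27277538 to 33237914 counts, and the precision of a gene follows from its own counts, which are given where they are low. The labels call the replicates biological without saying how the cultures were separated, so p-values measure the spread between these libraries. No pair of replicates agreed within sampling noise (chi-square per degree of freedom at least 5.09).

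Alternatives were limma-voom (limma 3.58.1), DESeq2 1.42.0, the likelihood ratio test, other scalings, other filters, leaving out ribosomal RNA genes, a replicate block, each library left out and unadjusted p < 0.01. Fits by ribosomal RNA class were added after the data were seen. The edgeR fit was tested on simulated data. Gene models and exonic lengths came from GENCODE 44, promoters from RefSeq (GRCh38.p14), which matched 5 of 8 members and 47 of 60 pathway genes. Named genes were the 8 members, ALDOA, up to 5 called genes per list by p, genes left out by the filter and the 3 genes most correlated with a called member. Further genes of the lists and several cell type markers are named outside this rule, after their values were seen. These genes of the lists are PYCARD, NLRP3, NLRP6, NLRC4, CARD8, NAIP, XIAP, PJVK, NINJ1, IL18, IL33, PARP1, LMNA and IRF2. Members and lists were chosen with earlier results of these data known. Some genes of the lists are not reported here and were left out of their counts. A planned comparison of protein sequences was not made.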

Additional observations from a re-analysis of the deposited data

How the results depend on the processing

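GSDMD was the only one of the 8 genes called under any setting. It was higher in all 19 other fits and called in 15, and the number of the 8 genes called higher ranged from 0 to 1 when 1 library was left out. That number was 0 in the fits below and above 10% ribosomal RNA, which were added after the data were seen and each set 2 libraries against 1, so that calls lost there say little about the size of a change. None of the 8 was called lower under any setting. Values of genes that were never called changed sign in some fits. Without siALDOA replicate 2 the log2 fold change of CASP1 was -0.33 and that of CASP9 -0.028. Without siALDOA replicate 3 that of CASP9 was -0.013 and that of CASP2 -0.0067. Without siControl replicate 3 CASP2 was at -0.044, without siControl replicate 1 CASP4 at -0.010 and without siControl replicate 2 CASP8 at -0.0040. With the ribosomal RNA class as a term CASP1 was at -0.10 and CASP9 at -0.023. Within the libraries above 10% CASP1 was at -0.38, CASP2 at -0.10 and CASP9 at -0.16, and within those below 10% CASP8 was at -0.093 and CASP10 at -0.0033. The leave-one-out values of these genes reached 0.41 for CASP1, 0.053 for CASP2, 0.080 for CASP4, 0.093 for CASP8, 0.10 for CASP9 and 0.21 for CASP10. The cause of these changes was not tested. Of the pathway genes 3 to 4 were called higher when 1 library was left out and 2 within the libraries above 10% ribosomal RNA. The number called lower was 0 with library totals only, which moved the median log2 fold change of all genes to 0.075, 0 to 1 when 1 library was left out, and 1 within each ribosomal RNA class. Over all genes, 668 higher and 810 lower calls became 896 and 279 with library totals only, 359 and 490 without siControl replicate 2, 363 and 471 without siControl replicate 3, and 416 and 514 within the libraries above 10% ribosomal RNA. Deviations from the group means correlated by 0.026 to 0.035 between same-numbered replicates and by -0.046 to 0.022 between the others. The same-numbered values were the highest, though all were small. Whether same-numbered replicates share more than a number was not tested. With the replicate block GSDMD was at 0.32 (edgeR adjusted p = 6.61e-04) and ALDOA at -1.13. Of the 8 genes 1 was called higher and 0 lower, and of the pathway genes 5 were called higher and 3 lower. Over all genes the block gave 987 higher and 1175 lower calls. The depth limits CASP1 most, at 34 to 94 counts per library.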
